A study of Mus musculus with 9 samples.

Results

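The kallikreins of the epidermis and their inhibitor Spink5 were examined in back skin RNA of mice with DNCB-induced dermatitis. The set held 10 genes, Klk5, Klk6, Klk7, Klk8, Klk9, Klk10, Klk11, Klk13, Klk14 and Spink5, found by gene name among the 34637 genes of the deposited FPKM table. All 10 names were found, and all 10 genes passed the filter on low counts. The genes were chosen by name with their fold changes between the FJDHF and Model libraries, measured on these counts, already known. That difference is therefore given below as a description, and no test of it is offered for these genes.

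All 9 libraries came from the back skin of male C57BL/6 mice aged 6 to 8 weeks, shaved on the back and then sensitized on day 1 with 200 μL of 1% DNCB (2,4-dinitrochlorobenzene, a small reactive molecule that raises a contact allergy). From day 4 to day 21 the skin of every mouse was painted repeatedly with 100 μL of 0.5% DNCB, and the experiment ended on day 28. The Model group (4 libraries) drank an equal amount of water, and the FJDHF group (5 libraries, the middle dose of the study) was fed Fangji Dihuang formulation, a decoction of plant drugs, daily after day 7. Unpainted skin was not analysed here, so no value below says how far either group was from healthy skin. The columns of the tables carry the codes MXL1, MXL12, MXL3_4 and MXL_3, taken as Model, and MR1, MR3, MR3_4, MR4_5 and MR5, taken as FJDHF. This reading uses how many columns carry each prefix, and that MX abbreviates the Chinese for model. Neither the labels nor the study explains the codes, so every direction below rests on that reading, and whether codes such as MR3_4 mark pooled mice was not tested. Nothing ties a column to a single mouse, so the errors given measure the spread between libraries.

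Kallikreins are secreted serine proteases made as inactive precursors by keratinocytes of the upper epidermis. In the stratum corneum they cut the corneodesmosomes that hold dead cells together, so that the surface cells are shed. Klk5 is regarded as the starter of the cascade, since it can activate itself and then the precursors of Klk7 and Klk14. Spink5 encodes LEKTI, a protein with many inhibitory domains that keeps these proteases in check until the outer layers, and its loss causes Netherton syndrome, a disease with scaling, allergy and a leaky barrier.

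The 9 kallikrein genes lie side by side on the plus strand of chromosome 7 (GRCm38), from 43690418 to 43851181, a stretch of 161 kb, in the order Klk14, Klk13, Klk11, Klk10, Klk9, Klk8, Klk7, Klk6 and Klk5. Klk12, which is no member of the set, lies between Klk13 and Klk11. Exons of the antisense gene 2310002F09Rik overlap exons of Klk14 and of Klk8 on the opposite strand. The study describes strand-specific libraries, but the use of strand in counting is not given in the sources used here. The antisense gene had 12 to 71 counts per library. Its reads could thus be few beside those of Klk8 (1000 to 6075 counts) but not beside those of Klk14 (0 to 302 counts).

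Promoter sequences were available from RefSeq (GRCm38.p6, 250 bases before to 50 after each start) for 9 of the 9 kallikreins, with 11 promoters because Klk6 and Klk11 have more than 1 start. Spink5 had no entry. Those of Klk7, the most abundant kallikrein here, and of Klk5 and Klk8, the pair whose levels ran most alike, are shown 5′ to 3′ on the plus strand. Capitals mark GC boxes, GGGCGG or its reverse complement.
Klk7, chr7:43811044-43811343: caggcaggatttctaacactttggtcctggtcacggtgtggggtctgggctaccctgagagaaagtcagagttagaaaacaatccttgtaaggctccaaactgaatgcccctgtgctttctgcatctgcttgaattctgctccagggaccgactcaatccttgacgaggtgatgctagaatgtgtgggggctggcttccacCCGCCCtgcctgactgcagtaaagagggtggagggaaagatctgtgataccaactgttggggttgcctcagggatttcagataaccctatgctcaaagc
Klk5, chr7:43842019-43842318: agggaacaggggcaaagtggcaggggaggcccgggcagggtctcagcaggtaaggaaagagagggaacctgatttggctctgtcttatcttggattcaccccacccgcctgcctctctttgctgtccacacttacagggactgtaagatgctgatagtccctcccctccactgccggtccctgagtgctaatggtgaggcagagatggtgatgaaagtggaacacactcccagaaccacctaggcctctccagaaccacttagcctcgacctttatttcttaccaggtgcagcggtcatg
Klk8, chr7:43797327-43797626: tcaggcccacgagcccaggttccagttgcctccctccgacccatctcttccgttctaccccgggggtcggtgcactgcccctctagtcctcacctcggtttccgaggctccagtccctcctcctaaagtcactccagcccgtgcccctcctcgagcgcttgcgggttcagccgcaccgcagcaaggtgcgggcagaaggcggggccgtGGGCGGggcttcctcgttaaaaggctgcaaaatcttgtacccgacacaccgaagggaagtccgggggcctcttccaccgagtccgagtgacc
A GC box was found in promoters of 4 kallikreins (Klk6, Klk7, Klk8 and Klk9) and in 35.7% of the 32851 RefSeq promoters searched. In Klk8 it began 42 bases before the start, and in Klk7 it lay on the minus strand and began 49 bases before the start. An E-box of the form CANNTG was found for 7 of 9 kallikreins, against 72.3% of all promoters. A kallikrein was counted if any of its promoters had a match, whereas the shares over all are of single promoters. The TATA box letters TATAAA were found in 0 kallikrein promoters and in 13.6% of all. The same held for the AP-1 motif TGANTCA (0 against 7.81%) and for the Grainyhead-like motif AACNGGTT (0 against 2.09%). Both strands were searched, and the matches are descriptions of letters in these windows.

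Klk7, a chymotrypsin-like enzyme that cuts corneodesmosin and desmocollin, had the highest level of the set in every library. Levels between genes are compared as FPKM, which the authors scaled for gene length. Averaged over the 9 libraries, Klk7 had 310 FPKM and Spink5 96.4 FPKM, and Klk7 exceeded Spink5 in 9 of 9 libraries. Klk6 (48.5), Klk5 (44.7), Klk10 (31.2) and Klk8 (28.5 FPKM) followed, and these 4 could not be put in a fixed order, since Klk6 exceeded Klk5 in 3 libraries, Klk5 exceeded Klk10 in 6 and Klk10 exceeded Klk8 in 5. Klk8 exceeded Klk11 (9.83 FPKM) in all 9 libraries, whereas Klk11, Klk13 (8.74) and Klk9 (8.48 FPKM) changed places between libraries. Klk14 was the lowest at 0.917 FPKM.

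**Figure D1:**
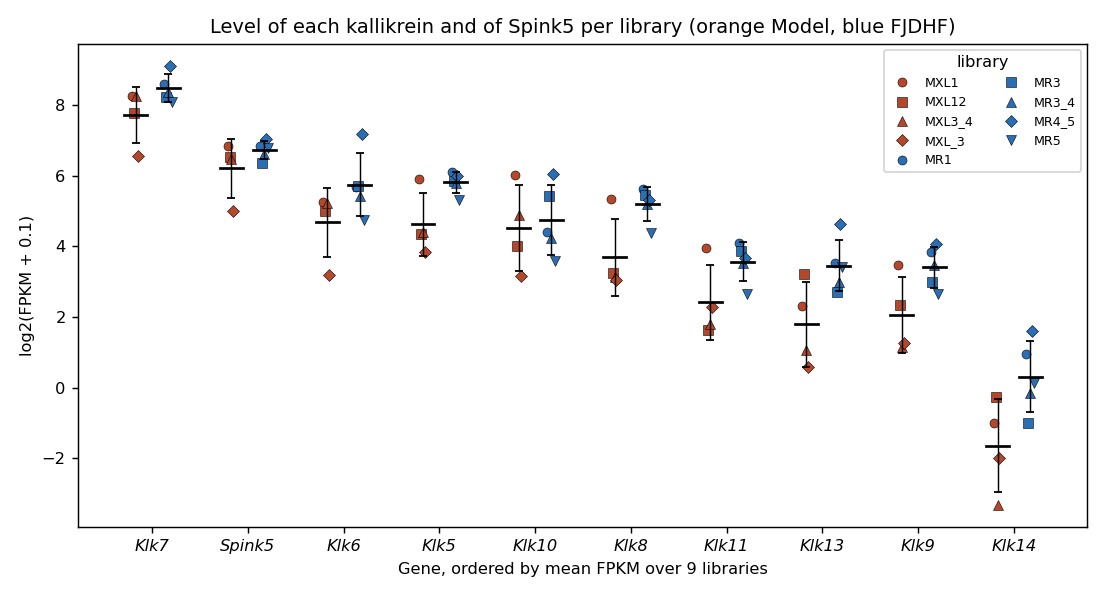
Level of each kallikrein and of Spink5 as log2(FPKM + 0.1) in each of 9 libraries, with genes ordered by mean FPKM, points for libraries and black bars for the group mean ± SD. Klk7 is the highest and Klk14 the lowest gene, and the Model library MXL_3 (orange diamond) is the lowest of the 9 for 7 of the 10 genes.

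All 10 genes had a log2 fold change above 0, that is, a higher estimate in the FJDHF group, from 0.09 for Klk10 to 2.08 for Klk14 with a median of 1.03. Among all 20817 genes tested, 44.1% had a log2 fold change above 0, and the median was -0.03. In 5 of the 10 genes (Klk6, Klk8, Klk9, Klk13 and Klk14) the estimate was at least 1, which held for 1.84% of all genes. In 0 of the 10 did the groups separate fully, whereas 0.231% of all genes had every FJDHF library above every Model library and 0.514% had groups that did not overlap in either direction. The study itself reported differentially expressed genes between its model and middle-dose FJDHF groups, without giving their number in its text. With the study's thresholds, a Benjamini-Hochberg value below 0.05 plus a 2-fold difference, edgeR called 0 of the 10 genes and 0 of 20817 (0.0%). At an unadjusted p under 0.05 it listed Klk5, Klk8, Klk9 and Klk13, 4 of the 10, where 0.773% of all genes were listed as higher in FJDHF. That count rested on single libraries, being 0 without MXL_3, 1 without MR1, MR4_5 or MXL3_4, 2 without MR3_4 or MXL12, 4 without MR3 and 5 without MR5 or MXL1. With covariates it was 0 for the suprabasal keratinocyte score and 7 for the skeletal muscle score. DESeq2 listed 6 of the 10 as higher at an unadjusted p under 0.05, beside 1.02% of all genes, and called 0 at the adjusted threshold, with 2 calls (0.00967%) over all genes. Nothing is read from these counts, because the same contrast was in view when the genes were chosen.

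Klk5, the starter protease, had 83.1 CPM in MXL1, 28.7 in MXL12, 30.2 in MXL3_4 and 21.0 in MXL_3 (CPM, a count scaled to library size with edgeR's TMM factors). In the FJDHF libraries it had 98.8 CPM in MR1, 79.1 in MR3, 80.7 in MR3_4, 85.9 in MR4_5 and 54.6 in MR5. Thus 3 Model libraries lay below all FJDHF libraries, and MXL1 lay among them. The means were 40.8 ± 28.5 CPM (SD, n = 4) in Model and 79.8 ± 16.1 CPM (SD, n = 5) in FJDHF, a log2 fold change of 0.97 (standard error 0.38), or 1.58 without MXL1.

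Klk14, a trypsin-like protease able to activate other kallikreins, had the fewest reads of the set. Its counts were 42 in MXL1, 75 in MXL12, 0 in MXL3_4 and 16 in MXL_3. In the FJDHF libraries they were 187 in MR1, 41 in MR3, 82 in MR3_4, 302 in MR4_5 and 102 in MR5. A count of 0 at this depth allows up to 3 counts, or 0.0377 CPM in MXL3_4, for counting error alone. The groups overlapped through MR3, and the log2 fold change of 2.08 had the widest standard error of the set, 0.98.

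Klk7 had 600.1 CPM in MXL1, 445 in MXL12, 620.0 in MXL3_4 and 199 in MXL_3. The FJDHF libraries had 791 CPM in MR1, 579 in MR3, 694 in MR3_4, 1068 in MR4_5 and 533 in MR5. Here 2 Model libraries, MXL12 and MXL_3, lay below all FJDHF libraries, and MXL1 and MXL3_4 lay between MR3 and MR3_4. The log2 fold change was 0.65 (standard error 0.33), the smallest among the kallikreins after Klk10, and it fell to 0.40 without MXL_3.

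Klk8, a trypsin-like protease also known as neuropsin, had 63.7 CPM in MXL1 but 15.2, 14.3 and 13.8 CPM in MXL12, MXL3_4 and MXL_3. Its FJDHF values were 80.7 CPM in MR1, 68.3 in MR3, 61.5 in MR3_4, 62.1 in MR4_5 and 32.9 in MR5. As with Klk5, MXL1 was the single Model library inside the FJDHF range. The log2 fold change of 1.19 (standard error 0.49) became 2.08 without MXL1. Klk11, a neighbour of the same cluster, gave the same picture at a lower level, with 23.3 CPM in MXL1, 4.66 to 7.73 CPM in the other Model libraries and 9.36 to 26.5 CPM in FJDHF. Its log2 fold change was 0.89 (standard error 0.49), and 1.68 without MXL1.

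Klk13 had 11.5 CPM in MXL1, 22.4 in MXL12, 4.89 in MXL3_4 and 3.51 in MXL_3, against 27.9 CPM in MR1, 15.2 in MR3, 19.7 in MR3_4, 57.8 in MR4_5 and 25.2 in MR5. For this gene MXL12, not MXL1, was the Model library inside the FJDHF range. Its log2 fold change was 1.46 (standard error 0.58), and 2.14 without MXL12. Klk9, a chymotrypsin-like member, ranged from 3.37 to 16.6 CPM in Model and from 9.43 to 25.0 CPM in FJDHF, with a log2 fold change of 1.14 (standard error 0.50), or 1.80 without MXL1.

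Klk6, a trypsin-like protease, had 59.8 CPM in MXL1, 51.6 in MXL12, 60.8 in MXL3_4 and 15.2 in MXL_3. The FJDHF values were 83.0 CPM in MR1, 80.5 in MR3, 71.1 in MR3_4, 223 in MR4_5 and 41.7 in MR5. The library MR4_5 stood well above the others and MR5 lay below 3 of the 4 Model libraries. The log2 fold change of 1.09 (standard error 0.52) fell to 0.56 without MR4_5. Klk10 did not share the direction in a stable way. It had 13.4 to 91.3 CPM in Model and 16.7 to 92.8 CPM in FJDHF, its log2 fold change was 0.09 (standard error 0.60), and it ranged from -0.34 without MR4_5 to 0.77 without MXL1.

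Spink5, the inhibitor, lies on chromosome 18 (GRCm38, plus strand) from 43963235 to 44022501. It had 569.9 CPM in MXL1, 468 in MXL12, 456 in MXL3_4 and 167 in MXL_3. In the FJDHF libraries it had 580 CPM in MR1, 403 in MR3, 519 in MR3_4, 643 in MR4_5 and 543 in MR5. Apart from the low value in MXL_3 the groups lay over each other. The log2 fold change was 0.37 (standard error 0.31), and 0.11 without MXL_3.

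**Figure D2:**
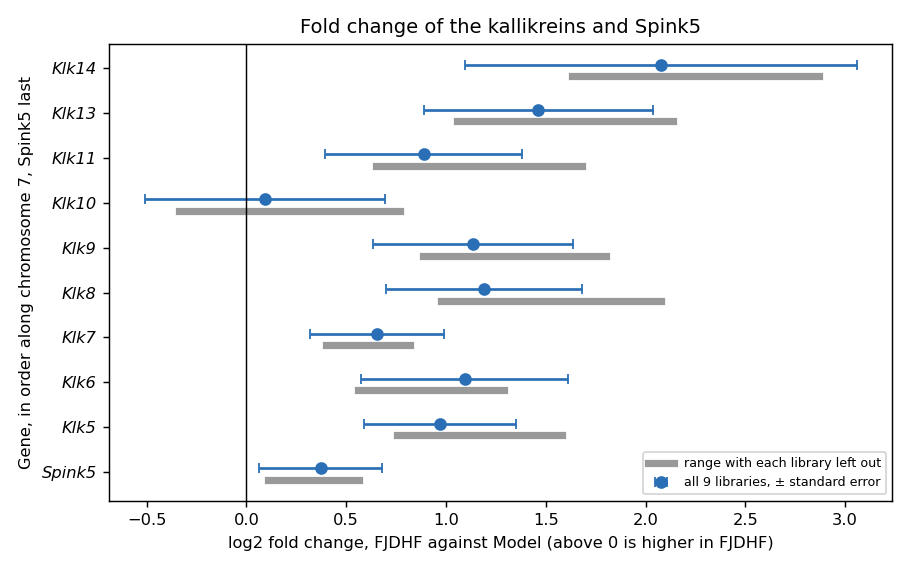
log2 fold change of FJDHF against Model for the 9 kallikreins in chromosome order and for Spink5, as edgeR's estimate ± standard error over 9 libraries (blue) and as the range over fits that each omitted 1 library (grey). Klk10 is the gene whose range crosses 0, from -0.34 to 0.77, and Spink5 has the smallest estimate after Klk10, 0.37.

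The balance of proteases to inhibitor was followed as the summed FPKM of Klk5, Klk7 and Klk14 per FPKM of Spink5 in the same library. This ratio was 3.19 in MXL1, 2.63 in MXL12, 3.67 in MXL3_4 and 3.45 in MXL_3. It was 4.07 in MR1, 4.33 in MR3, 3.94 in MR3_4, 4.70 in MR4_5 and 2.85 in MR5. In FJDHF, 4 of 5 libraries lay above every Model library, and MR5 lay below 3 of them. The means were 3.23 ± 0.45 (SD, n = 4) in Model and 3.98 ± 0.69 (SD, n = 5) in FJDHF. With all 9 kallikreins in the sum, the ratio was 4.32 ± 0.59 in Model and 5.54 ± 1.29 in FJDHF. These ratios are of mRNA, and neither protein nor protease activity was measured.

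Klk7 made up most of the kallikrein mRNA in each library, 56.7% to 74.5% of the summed FPKM in Model and 57.0% to 69.0% in FJDHF. The share of Klk5 was 5.15% to 11.1% in Model and 6.83% to 11.1% in FJDHF, and that of Klk8 was 2.12% to 7.40% and 4.29% to 8.28%. The summed level itself was 144 to 544 FPKM in Model and 397 to 926 FPKM in FJDHF.

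**Figure D3:**
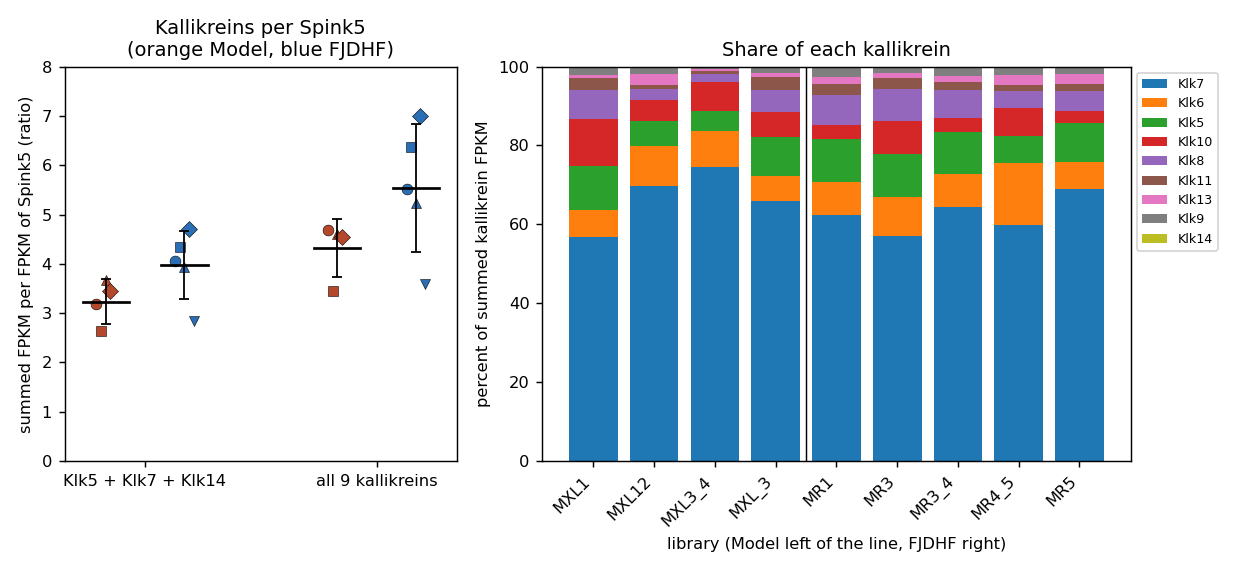
Left, summed FPKM of Klk5, Klk7 and Klk14, and of all 9 kallikreins, per FPKM of Spink5, with 1 point per library and the group mean ± SD. Right, the percent of the summed kallikrein FPKM from each gene in each library, where Klk7 holds between 56.7% and 74.5%.

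The genes of the set varied together to different degrees across libraries. All 45 pairs had a Pearson r above 0 on log2(CPM + 0.5) over the 9 libraries, with a median of 0.68 and a range from 0.18 (Klk10 with Klk14) to 0.98 (Klk5 with Klk8). The libraries share their epidermal content and their group difference between all genes, so these values are descriptions and carry no p. Klk5, Klk8 and Klk11 ran closely together, with r of 0.92 to 0.98. Klk6 and Klk7 lie between Klk5 and Klk8, and Klk9 and Klk10 between Klk8 and Klk11. Of these genes in between, Klk9 ran about as closely with Klk5 (r of 0.92) and Klk8 (0.91), and less so with Klk11 (0.83). Klk6 and Klk7, which are neighbours, had an r of 0.95, and Klk13 and Klk14, also neighbours, 0.93. Spink5, on another chromosome, was closest to Klk7 by Pearson r (0.92). Ranks did not keep this order, since Spearman's rho of Spink5 was 0.72 with Klk7 and highest with Klk14, 0.85. After each group's mean was subtracted the median r over the 45 pairs was 0.60, and that of Klk5 with Klk8 was 0.97.

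**Figure D4:**
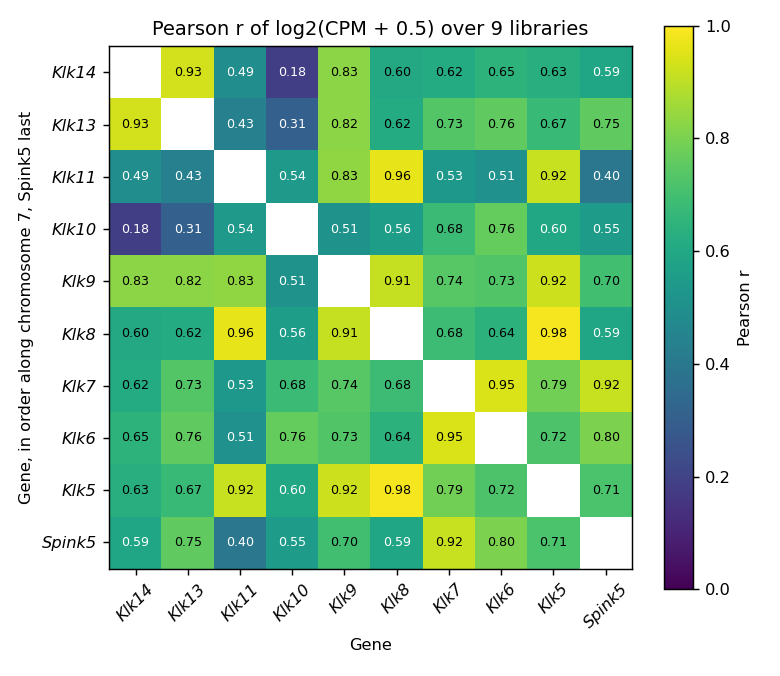
Pearson r of log2(CPM + 0.5) over 9 libraries for each pair of genes, ordered along chromosome 7 with Spink5 last. Klk5, Klk8 and Klk11 have r of 0.92 to 0.98 with each other, and Klk10 has its lowest r with Klk14, 0.18.

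By library, MR4_5 was highest for 7 of the 10 genes and MR1 for the other 3 (Klk5, Klk8 and Klk11). MXL_3 was lowest for 7 genes. In these bulk samples fewer cells of a type and less RNA per cell cannot be told apart. MXL_3 also had the lowest score of basal keratinocyte markers (7.20, the mean log2(CPM + 0.5) of 8 genes, against 7.34 to 9.00 in the other Model libraries) and the highest skeletal muscle score (10.8 against 5.78 to 8.82).

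Markers of the suprabasal epidermis, where kallikreins are made, moved with the set. All 6 of these markers (Krt1, Krt10, Lor, Ivl, Krtdap and Sbsn) were detected, all 6 had a log2 fold change above 0, and their median was 0.90. Their summed level was 2538 to 7729 CPM in Model and 6555 to 13380 CPM in FJDHF. Their mean log2(CPM + 0.5), the suprabasal score, was 7.48 to 8.87 in Model and 8.61 to 9.40 in FJDHF. The difference was 1.03 (two-sided exact permutation p = 0.0476, Benjamini-Hochberg adjusted p = 0.333 over 7 library scores). These markers were chosen with earlier results of these data known, so nothing is read from this p. At an unadjusted p under 0.05 edgeR listed Krt1, Krt10, Ivl and Krtdap, 4 of the 6, as higher, where 0.773% of all genes were. Ivl (involucrin, a cornified envelope protein) had 165 to 208 CPM in FJDHF and 67.6 to 161 CPM in Model. It was the 1 marker of the 6 whose groups did not overlap. Among all genes, 0.231% had every FJDHF library above every Model library. For the same reason nothing is read from these counts. With the suprabasal score as a covariate in the edgeR fit, an alternative added after the data were seen, the median log2 fold change of the 10 genes was 0.041. Under it Klk5 had 0.0050 (standard error 0.29), Klk7 0.038 (0.50), Klk8 0.12 (0.39) and Spink5 -0.20 (0.43), while Klk13 had 1.33 (1.02) and Klk14 1.63 (1.81). The standard errors of Klk7, Klk13 and Klk14 were wider than without the covariate and those of Klk5 and Klk8 narrower. Since score and group move together, a change in kallikrein mRNA and a change in suprabasal epidermis cannot be told apart.

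The direction relative to a keratin depended on the gene and on the keratin. Against Krt10, of suprabasal cells, Spink5 counts, scaled to CPM, were 10.6% to 14.6% of those of Krt10 in FJDHF and 14.6% to 46.9% in Model. Klk7 was at 13.0% to 21.6% of Krt10 in FJDHF and 16.7% to 44.7% in Model, and Klk5 at 1.33% to 2.65% and 1.83% to 2.88%. Klk8 was at 0.804% to 2.29% of Krt10 in FJDHF and 0.991% to 1.77% in Model, with the higher mean in FJDHF (1.51% against 1.37%). Against Krt5, of basal cells, all 4 means were higher in FJDHF. Klk8 was at 4.48% ± 2.00 of Krt5 in FJDHF (SD, n = 5) and 1.99% ± 0.638 in Model (SD, n = 4), with 4 of 5 FJDHF libraries above every Model library. Klk5 was at 5.98% ± 2.59 and 3.31% ± 1.08, with 3 of 5 above, whereas Klk7 (53.6% and 43.3%) and Spink5 (41.9% and 39.5%) overlapped widely. The 8 basal keratinocyte markers, by contrast, had a median log2 fold change of 0.022, with 4 above and 4 below 0, which was 0.65 without MXL1 and -0.18 without MXL_3. With their score as a covariate the median of the 10 genes was 0.95.

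Of the markers of other cells, 6 of 6 sebaceous gland, 6 of 6 fibroblast, 6 of 6 neutrophil and 3 of 3 endothelium genes had a log2 fold change below 0 (medians -0.48, -0.42, -1.18 and -0.13). For macrophages 6 of 6 and for T cells 5 of 5 lay above 0 (medians 0.21 and 0.24), as did 4 of 5 for adipocytes (0.29), 6 of 9 for hair follicle (0.16) and 3 of 8 for skeletal muscle (-0.20). Single libraries set several of these directions. The neutrophil median was 0.25 without MXL12, with 3 of 6 genes on each side of 0, and the neutrophil score was 3.76 in MXL12 against 0.98 to 2.15 elsewhere in Model. The muscle median was 1.18 without MXL_3 and that of endothelium 0.19, the hair follicle median was -0.43 without MR3, the adipocyte median -0.24 without MR3_4 and the macrophage median -0.013 without MXL3_4. The medians of sebaceous gland, fibroblast and T cell markers held their sign whichever library was omitted. At an unadjusted p under 0.05 edgeR listed Mc5r (sebaceous gland), Col3a1 (fibroblast) and Mmp8 (neutrophil) as lower, where 0.793% of all genes were. In 1 of the 6 neutrophil genes every FJDHF library lay below every Model library. Among all genes, 0.514% had groups that did not overlap in either direction, including 0.231% with every FJDHF library above every Model library. Nothing is read from these counts. The summed skeletal muscle level was 552 to 15849 CPM in Model and 1853 to 10053 CPM in FJDHF. None of these marker lists had a gene at 0 in every library, and their part in the kallikrein values was not tested apart from the muscle covariate, under which the median of the 10 genes was 1.05.

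The share of GC-rich transcripts differed between libraries, with wide overlap between the groups. An index of it, the median log2 deviation of genes in the top quintile of GC content minus that of the bottom quintile, was -0.75 to 0.73 in Model and -0.77 to 0.60 in FJDHF (exact permutation p = 0.794). The 10 genes had a median GC content of 53.0%, against 49.2% for all tested genes. MR5 and MXL12 had the lowest index and MXL1 the highest. With the index as a covariate, also added after the data were seen, the median log2 fold change of the 10 genes was 1.03.

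The proteins that kallikreins cut in the stratum corneum were followed as a list of 5 corneodesmosome genes. At an unadjusted p under 0.05 edgeR listed 0 of the 5 in either direction and called 0 at the adjusted threshold, beside 1.57% of all genes at the unadjusted p. Their median log2 fold change was 0.44, with 4 above 0, and it was 0.20 without MXL_3 and 0.11 with the suprabasal score as covariate. Dsc1, encoding desmocollin 1, had 175 to 529 CPM in Model and 487 to 1054 CPM in FJDHF (log2 fold change 0.69, standard error 0.34), and Dsg1b, a desmoglein 1 gene whose reads near-identical copies can share, had 0.46 (standard error 0.44).

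Other proteases of the cascade showed no listed gene among 5 tested of 8, where 1.57% of all genes were listed in either direction. Their median log2 fold change was 0.16, and it was 0.0085 to 0.084 without MR3, MXL12, MXL_3 or MR1, 0.42 without MR5, 0.57 without MXL1 and -0.21 with the suprabasal score as covariate. Prss8 (prostasin) had an estimate of 0.31 (standard error 0.67) and St14 (matriptase, an activator of kallikrein precursors) 0.27 (0.52), both with wide overlap. Mep1a, Mep1b and Elane did not pass the filter on low counts. Among 10 other protease inhibitors 0 were listed, beside the same 1.57% of all genes. An estimate above 0 was found for 7 of them and for 44.1% of all genes, and the median of the inhibitors was 0.20. That median turned to -0.063 without MXL_3 and to -0.28 with the suprabasal score as covariate, and was 0.36 without MXL3_4, 0.35 without MXL1 and 0.13 without MR4_5. The largest were Wfdc12 (1.05, standard error 0.71) and Wfdc5 (0.74, standard error 0.40), both of the WAP family of small inhibitors.

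Of 7 genes found from the list of signalling partners and other targets (Cela2a was not found), 1 was listed as higher, Flg, encoding filaggrin, where 0.773% of all genes were. Flg had 152 to 378 CPM in Model and 346 to 1197 CPM in FJDHF, a log2 fold change of 1.36 (standard error 0.40, unadjusted p = 0.00613, adjusted p = 1.00 by edgeR). Nothing is read from the p of Flg, because the gene lists were chosen with earlier results of these data known. F2rl1, the gene of the protease-activated receptor PAR2 that Klk5 can switch on, had 28.2 to 93.2 CPM in Model and 42.0 to 79.6 CPM in FJDHF. Of the 7 genes, 3 had an estimate above 0 and 4 below, from -3.36 to 1.36. The median of the list was -0.020, and this median ranged from -0.14 without MR3 to 0.34 without MXL12.

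The rest of the kallikrein family was scarcely present. Of 7 such genes with FPKM values, 3 passed the filter, Klk12, Klk15 and Klk1, all with at most 127 counts in a library. Klk12, which lies inside the cluster, had 6 to 76 counts in Model and 26 to 127 in FJDHF (log2 fold change 1.26, standard error 0.81). Klk1 had an estimate of 0.79 (0.95) and Klk15 -0.79 (1.13). None of the 3 was listed at an unadjusted p under 0.05, where 1.57% of all genes were listed in either direction.

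The genes outside the set whose log2(CPM + 0.5) over the 9 libraries was most like the mean of the set were Pou3f1, Wfdc5, 2310046K23Rik, Tyro3 and Gm44645. Their Pearson r was 0.97 for Pou3f1, an epidermal POU transcription factor, 0.97 for Wfdc5, 0.97 for 2310046K23Rik, 0.96 for Tyro3, a receptor tyrosine kinase, and 0.96 for Gm44645 (n = 9 libraries, Spearman's rho 0.95 to 1.00). They were picked as the highest of all genes, so no p is given. Without MXL_3 and MXL3_4, the libraries farthest from the median, r was 0.91 to 0.95 over the remaining 7. Wfdc5 is also 1 of the 10 other protease inhibitors above.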

How the data were processed

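Back skin RNA of 4 Model and 5 FJDHF libraries was analysed. The authors deposited whole-number counts per gene without normalization (55401 genes) and FPKM values, scaled by the authors for length and depth, for 34637 genes. A further 9 columns of counts in the FPKM table were not used. The submitters' processing notes name HISAT, StringTie, DESeq2 and mm10. The study describes strand-specific libraries. The annotation release and the use of strand in counting are not given in the sources used here. Total counts were 74648669 to 79474215 per library, and 3 counts, taken as the floor, are 0.0377 to 0.0402 CPM, for counting error only.

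The members and the gene lists were chosen with earlier results of these data known. Counts were compared with edgeR 4.0.16 under R 4.3.3 (low counts removed by filterByExpr, TMM scaling, quasi-likelihood test, Benjamini-Hochberg adjustment over 20817 genes, no covariate), at the study's thresholds. The standard error is the fold change divided by the root of the F statistic. Library scores were compared with exact permutation tests (scipy 1.17.1). Named genes were the 10 members, the tested genes of the other kallikrein family, and the 5 genes most like the members. In the corneodesmosome, protease, inhibitor and signalling lists, genes at an unadjusted p under 0.05 were added, or else the 2 with the largest change. Ivl and F2rl1 were named after their values were seen, as were the other cell markers listed at an unadjusted p under 0.05. The fit was tested on simulated data. Alternatives were DESeq2 1.42.0 (test and size factors), limma 3.58.1 on log2(FPKM + 1) and log2(FPKM + 0.1), other filters, covariates, a replicate block and leaving out each library.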

Additional observations from a re-analysis of the deposited data

Results flagged for a closer look

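Libraries far from the rest of their group were looked for by Dixon's ratio (distance of the outermost value to the next one, over the whole spread of that group) in 28 comparisons (the 10 genes, 3 ratios and shares, and the total count, in both groups). The critical value was passed in 3, where 1.4 are expected by chance, and all 3 concern Model libraries. Klk8 was high in MXL1 (Dixon's ratio 0.937), Klk6 was low in MXL_3 (0.881), and the ratio of all 9 kallikreins to Spink5 was low in MXL12 (0.881). The values are 5034 counts of Klk8 in MXL1 against 1000 to 1152 in the other Model libraries, 1096 counts of Klk6 in MXL_3 against 3897 to 4722, and a ratio of 3.44 in MXL12 against 4.54 to 4.69. The part of library quality or tissue content in these values was not tested.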

How the results depend on the processing

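The number of genes called at the adjusted threshold was 0 with edgeR and in the other alternatives except DESeq2's Wald test, which called 2, Casp14 and Defb8, named here because the count is small. The genes at an unadjusted p under 0.05 (326) numbered 905 without a filter on low counts and 217 to 734 when single libraries were left out (217 without MR4_5, 734 without MXL1). The median log2 fold change of the 10 genes, 1.03, was 0.79 to 1.54 with a library left out (0.79 without MXL_3, 1.54 without MXL1) and 0.95 to 1.18 in the other alternatives, but 0.041 with the suprabasal score as covariate, which with the GC index and the marker medians without single libraries was chosen after seeing the data. Klk14 was not tested under the filter of at least 10 counts in every library. Of the 10 genes 9 or 10 had an estimate above 0 when single libraries were left out. Klk10 turned negative with the basal keratinocyte covariate (-0.16), with the suprabasal covariate (-0.79) and in the replicate block fit (-0.09), and Klk11 (-0.14) and Spink5 (-0.20) with the suprabasal covariate. With limma on log2(FPKM + 1) the estimate of Klk14 was 0.79. The log2 difference in protease to inhibitor balance stayed between 0.19 and 0.40 with each library left out, and was 0.28 with CPM in place of FPKM. The median of the other proteases was 0.0085 to 0.57 with a library left out. That of the other kallikrein family (0.79, 3 genes of low counts) was 0.38 to 1.72 with a library left out, 1.25 without a filter, 0.22 with limma on log2(FPKM + 1), 1.24 with the GC index and -0.25 with the suprabasal score. The cause of these shifts was not tested.

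Column codes share the numbers 1, 3 and 3_4 between the groups. Deviations from the group means correlated at 0.22, 0.12 and -0.22 for these pairs, so the numbers were not taken to pair libraries. In the replicate block fit 281 genes had an unadjusted p under 0.05, 0 were called, the median of the 10 genes was 1.18 and that of the other kallikrein family 1.04.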
